A study of Mus musculus with 12 samples.

Results

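The genes described are those of cholesterol and fatty acid synthesis: the SREBP regulators, the enzymes that build cholesterol, the sterol carrier Stard4, and the enzymes that make, desaturate, elongate and activate fatty acids or place them into triglyceride. They were chosen by name from a list of 41 genes, and 40 had a probe set annotated to 1 gene symbol, out of 18194 genes measured. Acsl1 was not analysed here. Each gene was read by its brightest probe set over the 12 arrays. Total RNA came from the ventral or lateral prostate of mice aged 16 weeks, either wild type or carrying a knockout of Med1, a subunit of the Mediator complex, with 3 arrays in each of 4 groups. No group received a treatment. The strain, how and in which cells Med1 was deleted, and whether replicates are separate animals were not given in the sources used here. All p-values therefore rest on the spread among these samples alone, and that spread may be technical. Values are log2 signals, ± after a difference is its moderated standard error, and array values are given in the order of replicates 1, 2 and 3.

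SREBP transcription factors, made from Srebf1 and Srebf2, sit in the endoplasmic reticulum bound to the escort protein Scap, and Insig1 and Insig2 hold Scap there when sterol is plentiful. When sterol falls, Scap carries SREBP to the Golgi, where proteases release the active factor, which binds sterol regulatory elements beside NF-Y and Sp1 sites in the promoters of lipid genes. The SREBP-2 form acts mainly on cholesterol genes and the SREBP-1c form mainly on fatty acid genes. Prostate epithelium is a lipid-synthesizing tissue in which androgen is known to raise many of these enzymes.

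Promoter sequence was available from RefSeq (GRCm38.p6) for 31 of the 40 genes, as the 250 bases before to 50 bases after each start. Both strands were searched for 4 motifs, each counted separately also where they overlap. The NF-Y box CCAAT was found in 25 of 31 genes (80.6%), against 42.0% of the 14453 measured genes with a promoter. It was in 9 of 9 genes from squalene to cholesterol and 5 of 5 mevalonate genes, but in 2 of 5 genes of desaturation and elongation. The Sp1 box GGGCGG was also found in 25 of 31 (80.6%), against 57.3%, and the E-box CACGTG in 6 of 31 (19.4%), against 10.2%. The sterol element core TCACNCCAC was found in Hmgcs1 alone, 1 of 31 (3.23%), against 1.46%. The shares are descriptions, and a match is not a proven site. The 150 bases before a start are shown, on the gene's strand and 5′ to 3′ with matches in capitals, for Hmgcs1, which holds the sterol element core, and for 6 genes that passed a genotype test below. The coordinates are chr13:119690201-119690350 for Hmgcs1, chr15:82147119-82147268 for Srebf2, chr7:143830064-143830213 for Dhcr7 (1 of 3 listed starts), chrX:72918371-72918520 for Nsdhl, chr5:114165368-114165517 for Acacb, chr13:108214254-108214403 for Elovl7 and chr3:129532236-129532385 for Elovl6, all on the plus strand.
Hmgcs1: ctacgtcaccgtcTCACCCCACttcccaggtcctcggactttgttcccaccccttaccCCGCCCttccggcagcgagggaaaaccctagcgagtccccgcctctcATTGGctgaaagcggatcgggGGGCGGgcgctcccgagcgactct
Srebf2: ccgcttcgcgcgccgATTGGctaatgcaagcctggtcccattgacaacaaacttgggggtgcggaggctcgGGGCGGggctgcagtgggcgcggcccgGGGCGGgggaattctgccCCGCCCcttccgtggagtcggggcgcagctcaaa
Dhcr7: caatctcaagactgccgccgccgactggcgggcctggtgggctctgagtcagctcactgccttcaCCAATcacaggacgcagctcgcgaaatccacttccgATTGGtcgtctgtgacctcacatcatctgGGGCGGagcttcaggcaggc
Nsdhl: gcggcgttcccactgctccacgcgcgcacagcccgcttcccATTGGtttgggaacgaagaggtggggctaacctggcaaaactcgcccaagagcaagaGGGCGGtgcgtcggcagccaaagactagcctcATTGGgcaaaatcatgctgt
Acacb: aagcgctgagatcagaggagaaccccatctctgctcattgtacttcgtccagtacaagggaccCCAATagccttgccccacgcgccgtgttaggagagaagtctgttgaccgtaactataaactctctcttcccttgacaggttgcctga
Elovl7: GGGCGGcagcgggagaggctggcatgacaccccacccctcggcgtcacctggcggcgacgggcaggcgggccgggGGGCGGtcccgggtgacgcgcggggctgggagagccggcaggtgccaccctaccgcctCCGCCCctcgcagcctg
Elovl6: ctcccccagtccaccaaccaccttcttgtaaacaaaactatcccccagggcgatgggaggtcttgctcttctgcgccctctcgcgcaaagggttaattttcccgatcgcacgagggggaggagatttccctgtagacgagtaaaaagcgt
The cholesterol genes Hmgcs1, Dhcr7 and Nsdhl and the regulator Srebf2 each carry NF-Y and Sp1 boxes in these stretches. For Dhcr7 this holds only for the start shown. Of its other starts, chr7:143823017-143823166 holds an Sp1 box alone and chr7:143823249-143823398 none of the 4 motifs. Acacb has an NF-Y box, Elovl7 has Sp1 boxes, and Elovl6 has none of the 4 motifs, which says only that these letters are not in this stretch.

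Med1 itself read 9.48, 9.52 and 9.29 in ventral wild type and 8.90, 8.99 and 8.68 in ventral knockout, a fall of -0.57 ± 0.12 (limma adjusted p = 0.0119) that no longer passed without ventral knockout replicate 3 (limma adjusted p = 0.0518). The lateral difference was -0.13 ± 0.12 (limma adjusted p = 0.622), so the lateral group is called labelled knockout. Between lobes Med1 did not pass (0.44 ± 0.18, limma adjusted p = 0.136). All 7 Med1 probe sets were negative in the ventral lobe, and 4 passed as lower over all probe sets. In the lateral lobe 3 were negative and 4 positive, and 0 passed by limma. Of the 7, 1 passed between lobes (0.63 ± 0.15, limma adjusted p = 0.0269 over all probe sets). Array medians were 6.39 to 6.43 for ventral and 6.05 to 6.06 for lateral arrays. All 7 measured prostate epithelium markers were above the low-signal mark (the lower quartile of probe sets) in every group. Every measured lipid gene also lay above that mark in every group; the closest was Elovl6 in ventral wild type, at a mean of 4.84 against 4.73.

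In each lobe 35 of the 40 lipid genes did not pass the genotype test. In the ventral lobe 2 of 40 rose and 3 fell, that is 5% and 7.5%, against 5.88% and 3.2% of all genes (9.08% in either direction). In the lateral lobe 1 rose and 4 fell, 2.5% and 10%, against 1.62% and 3.42% of all genes (5.03% in either direction). Median differences were -0.048 in the ventral lobe (-0.020 over all genes) and -0.14 in the lateral lobe (-0.0025 over all genes). The arrays of the genotypes did not overlap for 7 genes on the higher and 8 on the lower side in the ventral lobe, out of 40, where the shares over all genes were 14.9% and 14.6%. Lateral arrays did not overlap for 3 genes on the higher and 10 on the lower side, against 11.2% and 15.7%. The difference had the same sign in both lobes for 27 of 40 genes (67.5%), 20 of them negative, while 43.8% of all genes shared their sign. In size the differences of the lobes correlated little across the 40 genes (Pearson -0.22, Spearman 0.10), against -0.059 and -0.12 over all genes. The genes that passed were Srebf2, Fdps, Dhcr7, Elovl7 and Fads1 in the ventral lobe and Nsdhl, Stard4, Acacb, Elovl6 and Fads1 in the lateral lobe. None of these 9 genes was read by a probe set of the kinds that can hybridize to several transcripts (suffix x or s), as 9 of the 40 were. With every probe set tested on its own, 10 of 98 probe sets of the set passed in the ventral lobe (5.71% of all probe sets), 6 in the lateral lobe (3.07%) and 5 between lobes (5.76%). Scap, Fdft1 and Acly passed in the ventral lobe, and Scap and Fads2 between lobes, by a probe set other than the brightest alone.

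**Figure D1:**
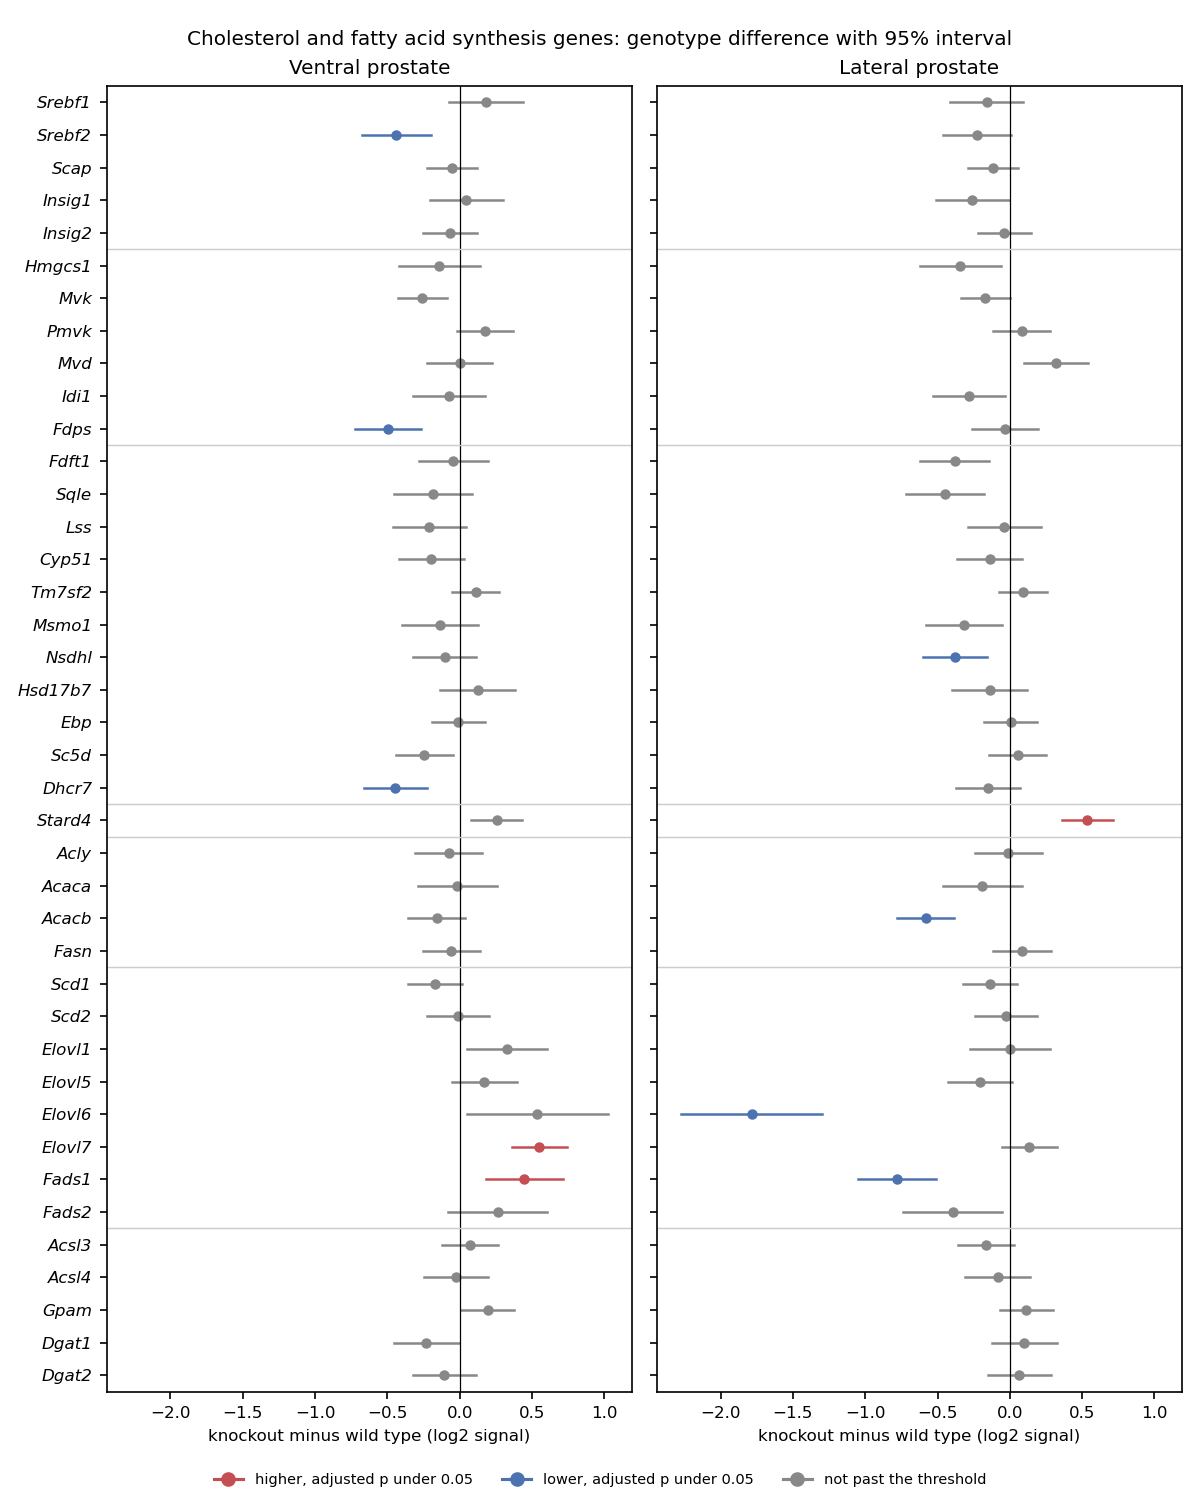
The x axis is the knockout minus wild-type difference in log2 signal and each row is a gene, ordered by role, with points for the difference and bars for its 95% interval (3 arrays in each group). Red and blue mark genes past an adjusted p of 0.05; in the lateral lobe Elovl6 at -1.79 stands furthest from 0.

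Bulk tissue was measured, so fewer cells of a type and less RNA per cell cannot be told apart, and the lists of other cell types moved with genotype. The mean of 10 smooth muscle genes ran from 9.66 to 9.94 in ventral wild type and 10.27 to 10.47 in ventral knockout, with 7 of 10 genes past the threshold as higher. Lateral arrays ran from 11.09 to 11.23 in wild type and 10.56 to 10.87 in the group labelled knockout, with 4 of 10 lower. The 10 fibroblast genes moved likewise, with 5 ventral genes higher and 6 lateral genes lower. Smooth muscle and fibroblast genes thus went opposite ways in the lobes, as Fads1 did.

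Of 7 measured adipocyte genes, 2 fell in ventral knockout (Adipoq by -1.26 and Lep by -0.44) and 1 in the lateral lobe (Plin4, by -0.58). Differences went the other way, without passing, for 2 of the 7 in the ventral lobe, both with separate arrays, the larger at 0.39. The list's mean was 5.59 to 5.68 in ventral wild type, 5.32 to 5.48 in ventral knockout, 5.85 to 6.0 in lateral wild type and 5.57 to 5.69 in the lateral group labelled knockout. Adipoq and Cidea were below the low-signal mark in all 4 groups, and Lep in every group but ventral wild type. Of 9 leukocyte genes, 1 rose in the ventral lobe (Csf1r) and 1 fell in the lateral lobe (Cd52). Ventral differences were negative for 7 of the 9, 2 of them with an unadjusted limma p under 0.05. The list's mean lay between 6.67 and 6.91 in ventral and between 6.30 and 6.49 in lateral arrays. Among the prostate epithelium genes, 3 of 7 fell in ventral knockout (Pbsn, Msmb and Tgm4) and 0 passed in the lateral lobe, where 0 also had an unadjusted limma p under 0.05.

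The 6 seminal vesicle genes averaged 11.41 to 11.50 in lateral wild type and 7.73 to 9.26 in the lateral group labelled knockout, and 4 of 6 fell. In ventral arrays that list ran from 3.81 to 5.52 in wild type, replicate 3 being the highest, and from 4.25 to 4.60 in knockout, with 5 of 6 genes below the mark in both groups. Elovl6, Fads1 and Acacb below were, like this list, high in lateral wild type and lower in the lateral group labelled knockout. The part that any of these lists has in the lipid results was not tested.

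**Figure D2:**
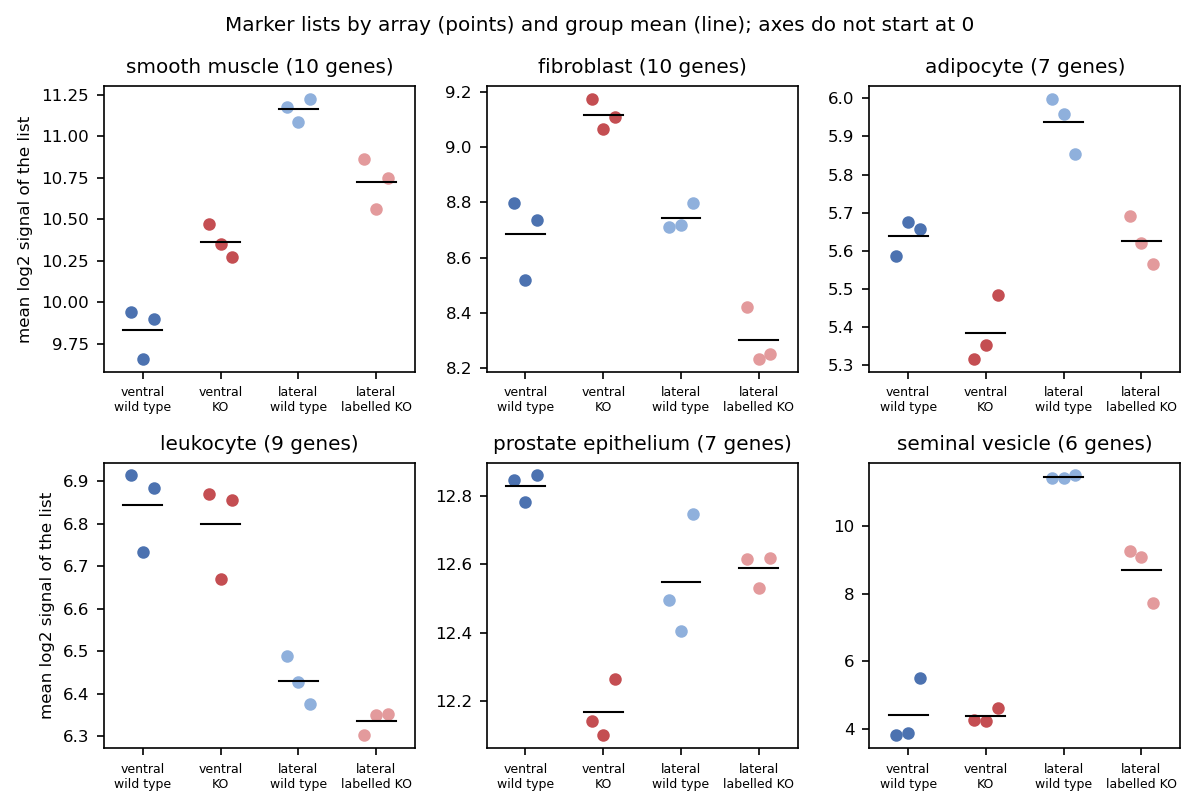
The y axis is the mean log2 signal of the measured genes of a list on 1 array, for the 4 groups, with points for arrays and a line for the group mean. The smooth muscle and fibroblast lists are higher in ventral knockout and lower in the lateral group labelled knockout than in their wild types, and the seminal vesicle list is high in lateral arrays.

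Of the 5 SREBP regulators, Srebf2 fell in ventral knockout and none passed in the lateral lobe. All 5 lateral differences were negative with a median of -0.16, where 50.6% of all genes were negative. Srebf2 encodes SREBP-2. It read 9.72, 9.59 and 9.64 in ventral wild type and 9.33, 9.35 and 8.95 in knockout, a fall of -0.44 ± 0.11 (limma adjusted p = 0.0247). Every knockout array lay below every wild-type array, replicate 3 the furthest. Lateral arrays read 9.09, 9.07 and 8.93 in wild type and 8.94, 8.69 and 8.78 in the group labelled knockout, with a difference of -0.23 ± 0.11 (limma adjusted p = 0.277) and overlapping arrays. The test between lobes did not pass (0.21 ± 0.16, limma adjusted p = 0.421). The ventral call was lost without ventral wild-type replicate 1 (limma adjusted p = 0.0873), ventral wild-type replicate 3 (0.0685) or ventral knockout replicate 3 (0.0766). Its other probe set was also negative in the ventral lobe, at -0.30, without passing (limma adjusted p = 0.0897 over all probe sets).

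Srebf1, which encodes SREBP-1, read 9.78, 9.63 and 9.85 in ventral wild type and 9.97, 9.64 and 10.20 in knockout, and 9.39, 9.36 and 9.33 in lateral wild type against 9.24, 9.12 and 9.23. Its differences of 0.18 ± 0.12 and -0.16 ± 0.12 did not pass (limma adjusted p = 0.370 and 0.495). Scap read 10.19, 10.09 and 10.15 in ventral wild type and 10.06, 10.07 and 10.15 in knockout, and 8.83, 8.98 and 8.94 against 8.88, 8.75 and 8.76 in the lateral lobe, so its genotypes overlapped in both lobes. Insig1, itself a target of SREBP, read 10.63, 10.61 and 10.58 in ventral wild type and 10.57, 10.52 and 10.86 in knockout. Lateral arrays read 8.94, 8.91 and 9.15 against 8.92, 8.51 and 8.79, a difference of -0.26 ± 0.12 (limma adjusted p = 0.246). Insig2 read 9.59, 9.58 and 9.56 against 9.46, 9.57 and 9.50 in the ventral lobe and 8.26, 8.13 and 8.17 against 8.23, 7.99 and 8.23 in the lateral lobe. By their brightest probe sets Scap, Insig1 and Insig2 differed by no more than 0.07 in size in the ventral lobe. The probe sets of Scap disagree: its other, dimmer one had a mean of 6.33 in ventral wild type and 5.68 in knockout, a fall of -0.65 ± 0.10 (limma adjusted p = 0.00251 over all probe sets), and 5.19 against 5.24 in the lateral lobe, so that the lobes differed by 0.70 ± 0.15 (limma adjusted p = 0.0123).

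The 6 genes of the mevalonate and isoprenoid steps act in the path from acetyl-CoA units to farnesyl diphosphate. They do not cover every step of that path. In the ventral lobe 1 fell, and their median difference was -0.11. Fdps, the synthase that makes farnesyl diphosphate, read 7.88, 8.26 and 8.09 in wild type and 7.48, 7.74 and 7.52 in knockout, a fall of -0.50 ± 0.11 (limma adjusted p = 0.010). Its arrays did not overlap in the ventral lobe. Its lateral arrays read 7.37, 7.49 and 7.40 against 7.45, 7.30 and 7.40, overlapping, with a difference of -0.04 ± 0.11. Between lobes the differences were 0.46 ± 0.15 apart, which did not pass (limma adjusted p = 0.0706). The ventral call held with each array left out in turn. With the 6 ventral arrays alone it was just missed (limma adjusted p = 0.0521).

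Mvk, mevalonate kinase, read 8.38, 8.54 and 8.50 in ventral wild type and 8.23, 8.25 and 8.16 in knockout, and 8.58, 8.72 and 8.58 against 8.45, 8.45 and 8.48 in the lateral lobe. Its arrays did not overlap in either lobe, but -0.26 ± 0.079 and -0.17 ± 0.079 did not pass (limma adjusted p = 0.0581 and 0.260). Mvd, which decarboxylates mevalonate diphosphate, read 7.51, 7.71 and 7.60 in lateral wild type and 8.0, 7.89 and 7.89 in the group labelled knockout. The difference was 0.32 ± 0.10 (limma adjusted p = 0.102), and 0.00 in the ventral lobe. Hmgcs1, which makes HMG-CoA, and Idi1, the isopentenyl diphosphate isomerase, had lateral differences of -0.34 and -0.28 with arrays that did not overlap (limma adjusted p = 0.163 and 0.196). Pmvk, phosphomevalonate kinase, had 0.17 and 0.08 in the ventral and lateral lobes. In the lateral lobe the mevalonate genes therefore had 4 negative and 2 positive differences, of which 0 passed by limma and 3 had an unadjusted p under 0.05. Of all genes 50.6% were negative there.

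Between squalene and cholesterol 11 genes were measured. Of these 1 fell in each lobe, Dhcr7 in the ventral and Nsdhl in the lateral lobe. The median difference was -0.14 in both lobes. Negative differences were 9 of 11 ventral and 8 of 11 lateral, against 54.1% and 50.6% of all genes. Dhcr7 encodes the reductase that makes cholesterol from 7-dehydrocholesterol. It read 9.39, 9.53 and 9.51 in ventral wild type and 9.0, 9.14 and 8.95 in knockout, a fall of -0.44 ± 0.10 (limma adjusted p = 0.0154) with no overlap. Its lateral arrays read 8.45, 8.32 and 8.44 against 8.41, 8.03 and 8.31, a difference of -0.15 ± 0.10 with overlap. The test between lobes did not pass (0.29 ± 0.14, limma adjusted p = 0.224). Dhcr7 lost its ventral call without ventral wild-type replicate 2 (limma adjusted p = 0.0524), ventral wild-type replicate 3 (0.0589) or ventral knockout replicate 3 (0.0545).

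Nsdhl, a dehydrogenase that takes part in removing the methyl groups at carbon C-4 of the sterol, read 7.21, 7.17 and 7.17 in lateral wild type and 6.85, 6.96 and 6.61 in the group labelled knockout, a fall of -0.38 ± 0.10 (limma adjusted p = 0.0482). It read 8.18, 8.37 and 8.44 against 8.32, 8.23 and 8.13 in the ventral lobe, overlapping, with -0.10 ± 0.10. The lateral arrays of the genotypes were separate, but the adjusted p lay just inside the threshold. Tested among every probe set, it missed the threshold (limma adjusted p = 0.0738). It passed in 8 of 22 alternatives and was lost without 9 of the 12 arrays, all but ventral wild-type replicate 1, ventral knockout replicate 3 and lateral labelled-knockout replicate 2. Without lateral labelled-knockout replicate 3 the difference was -0.28 (limma adjusted p = 0.176).

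The neighbouring squalene enzymes did not pass by their brightest probe sets, though Fdft1 did by another. Sqle, the squalene epoxidase, read 7.43, 7.54 and 7.44 in lateral wild type and 7.29, 6.88 and 6.89 in the group labelled knockout, which differ by -0.45 ± 0.12 (limma adjusted p = 0.0556). Fdft1, the squalene synthase, read 9.51, 9.64 and 9.60 against 9.16, 9.24 and 9.21, a difference of -0.38 ± 0.11 (limma adjusted p = 0.0665). Neither overlapped in the lateral lobe, while both overlapped in the ventral lobe, at -0.18 and -0.04. For Fdft1 this holds for the brightest probe set only, which is of a kind that can hybridize to several transcripts. A probe set nearly as bright had a mean of 10.10 in ventral wild type and 9.56 in knockout, a fall of -0.54 ± 0.094 (limma adjusted p = 0.00474 over all probe sets), and a lateral difference of -0.34 ± 0.094 (limma adjusted p = 0.0758). All 4 Fdft1 probe sets were negative in the ventral lobe, so whether its ventral or its lateral difference is the larger depends on the probe set. Sc5d, the sterol C-5 desaturase, differed more in the ventral lobe: 9.35, 9.49 and 9.25 in ventral wild type, 9.14, 9.19 and 9.03 in knockout, a difference of -0.25 ± 0.092 (limma adjusted p = 0.115), against 7.18, 7.27 and 7.20 and 7.24, 7.17 and 7.41 in the lateral lobe, at 0.05. By their brightest probe sets the interaction test did not pass for any of the 3 genes (limma adjusted p = 0.369, 0.195 and 0.169). The other 6 genes of this stretch, Lss, Cyp51, Tm7sf2, Msmo1, Hsd17b7 and Ebp, had ventral differences from -0.21 to 0.12 and lateral differences from -0.31 to 0.09, and none passed.

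Stard4, a small cytosolic carrier that moves cholesterol between membranes, rose in the lateral lobe. It read 7.62, 7.63 and 7.53 in lateral wild type and 8.10, 8.04 and 8.24 in the group labelled knockout, a rise of 0.54 ± 0.082 or 1.45-fold (limma adjusted p = 0.00136). In the ventral lobe it read 9.14, 9.09 and 9.03 against 9.27, 9.36 and 9.39, a difference of 0.26 ± 0.082 (limma adjusted p = 0.0678). The arrays were separate and higher in both lobes. All 3 of its probe sets were higher in the lateral lobe, and 2 passed over all probe sets. The lateral call was lost only where the probe set of largest variance was read instead, at 0.35 (limma adjusted p = 0.247). Among the cholesterol genes described, Stard4 thus rose in the lobe where Nsdhl fell. Between lobes neither Stard4 (0.28 ± 0.12, limma adjusted p = 0.150) nor Nsdhl (-0.28 ± 0.14, limma adjusted p = 0.250) passed.

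By their brightest probe sets the 4 enzymes that lead from citrate and acetyl-CoA to palmitate had ventral differences from -0.16 to -0.02, and 0 passed there by limma, with 0 at an unadjusted p under 0.05. Acly, the ATP citrate lyase, Acaca, acetyl-CoA carboxylase 1, and Fasn, the fatty acid synthase, had lateral differences of -0.01, -0.19 and 0.08 and did not pass. Of 6 Acly probe sets 5 were negative in the ventral lobe, and 1 of them fell, from a mean of 10.22 to 9.81 (-0.41 ± 0.10, limma adjusted p = 0.0306 over all probe sets), with a lateral difference of -0.06. Acacb is carboxylase 2, whose malonyl-CoA restrains fatty acid entry into mitochondria. It read 6.87, 6.85 and 7.10 in lateral wild type and 6.28, 6.31 and 6.48 in the group labelled knockout, a fall of -0.58 ± 0.091 or 1.50-fold (limma adjusted p = 0.00162). In the ventral lobe it read 6.02, 6.10 and 5.97 against 5.82, 5.87 and 5.93, separate but not past the threshold, at -0.16 ± 0.091 (limma adjusted p = 0.310). The test between lobes was just missed (-0.43 ± 0.13, limma adjusted p = 0.0547). Its other, dimmer probe set went the other way in the lateral lobe, from a mean of 4.44 to 4.72 (limma adjusted p = 0.187), and the mean of both gave -0.15 (limma adjusted p = 0.255), so the lateral fall rests on the brighter probe set.

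The largest changes were among the 8 genes of desaturation and elongation, and they differed between lobes. In the ventral lobe 2 rose, Elovl7 and Fads1 (25%, against 5.88% of all genes). The median difference over the 8 was 0.29 there, against -0.020 over all genes. In the lateral lobe 2 fell, Elovl6 and Fads1 (25%, against 3.42% of all genes), with a median of -0.17, against -0.0025 over all genes. The lateral minus ventral difference was negative in 7 of 8, against 47.2% of all genes, with a median of -0.40. It passed for Elovl6 and Fads1. These were the only 2 of all 40 genes past the threshold in that test as lower (5%, against 6.51% of all genes), and 0 passed as higher by limma (2.8% of all genes, and 9.31% in either direction), with 5 at an unadjusted p under 0.05.

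Elovl6 elongates palmitate-length chains to stearate length. It read 7.10, 6.96 and 7.37 in lateral wild type and 5.31, 5.55 and 5.21 in the group labelled knockout, a fall of -1.79 ± 0.23 or 3.45-fold (limma adjusted p = 2.93e-04). In the ventral lobe, where the signal was near the low mark, it read 4.93, 4.83 and 4.76 in wild type and 4.89, 5.16 and 6.09 in knockout. Lateral wild type therefore stood above the other 3 groups, and the spread in ventral knockout came from replicate 3. The ventral difference of 0.54 ± 0.23 did not pass (limma adjusted p = 0.161), and its genotypes overlapped. The lobes differed by -2.32 ± 0.32 (limma adjusted p = 5.38e-04), and by -1.97 without ventral knockout replicate 3 (limma adjusted p = 7.3e-05). All 3 Elovl6 probe sets were lower in the lateral lobe, and 2 passed over all probe sets. With their mean in place of the brightest, the lateral fall was -0.89 and the difference between lobes -1.14, both past the threshold (limma adjusted p = 7.87e-04 and 0.00147). Without lateral labelled-knockout replicate 3, which had the lowest seminal vesicle mean, and ventral wild-type replicate 3, the lateral fall was -1.71 (limma adjusted p = 0.00374).

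Fads1 encodes the delta-5 desaturase, which makes arachidonic and eicosapentaenoic acid. It read 7.34, 7.57 and 7.19 in ventral wild type and 7.95, 7.89 and 7.60 in knockout, a rise of 0.45 ± 0.12 or 1.36-fold (limma adjusted p = 0.0392). Its lateral arrays read 8.15, 8.06 and 8.27 against 7.57, 7.27 and 7.30, a fall of -0.78 ± 0.12 or 1.72-fold (limma adjusted p = 0.00179). The arrays of the genotypes were separate in each lobe, in opposite directions. The lobes differed by -1.23 ± 0.18 (limma adjusted p = 6.7e-04). The lateral fall and the difference between lobes passed in each alternative run, 22 and 21. With the mean of its 2 probe sets they were -0.50 (limma adjusted p = 0.0286) and -0.82 (0.00903). Its dimmer probe set had the same signs but did not pass on its own. It gave -0.23 in the lateral lobe (limma adjusted p = 0.560 over all probe sets) and -0.42 between lobes (0.349). The ventral rise was less firm: it was lost without ventral wild-type replicate 1 (limma adjusted p = 0.104), ventral wild-type replicate 3 (0.154), ventral knockout replicate 1 (0.121), ventral knockout replicate 2 (0.0890) or lateral wild-type replicate 1 (0.0547), and it kept its call in 13 of 22 alternatives. With every probe set tested on its own the ventral rise missed the threshold (limma adjusted p = 0.0575).

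Fads2, the delta-6 desaturase whose gene neighbours Fads1, had the same signs without passing. It read 6.83, 6.67 and 6.90 in ventral wild type and 7.27, 7.12 and 6.79 in knockout, and 7.99, 7.74 and 8.14 against 7.91, 7.30 and 7.48 in the lateral lobe. Differences of 0.26 ± 0.16 and -0.39 ± 0.16 overlapped between genotypes (limma adjusted p = 0.334 and 0.186), and the lobes differed by -0.66 ± 0.23 (limma adjusted p = 0.0849). Each of its 3 probe sets was positive in the ventral and negative in the lateral lobe, and 1 passed the test between lobes over all probe sets (-0.83, limma adjusted p = 0.0130).

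Elovl7, an elongase of long-chain fatty acids, rose in the ventral lobe. It read 9.28, 9.10 and 9.18 in wild type and 9.64, 9.70 and 9.89 in knockout, a rise of 0.55 ± 0.089 or 1.47-fold (limma adjusted p = 0.00170). The lateral arrays read 9.40, 9.45 and 9.48 against 9.66, 9.51 and 9.56, separate but not past the threshold at 0.14 ± 0.089 (limma adjusted p = 0.438). All 6 of its probe sets were higher in the ventral lobe and 4 passed over all probe sets, and the call held in 22 of 22 alternatives. The test between lobes was just missed, at -0.42 ± 0.13 (limma adjusted p = 0.0541). Elovl1, which elongates very long saturated chains, and Elovl5, which elongates polyunsaturated chains, had ventral differences of 0.32 and 0.17 with separate arrays (limma adjusted p = 0.135 and 0.334) and lateral differences of 0.00 and -0.21. The delta-9 desaturases Scd1 and Scd2, which make oleate from stearate, differed by -0.17 and -0.01 in the ventral and by -0.13 and -0.03 in the lateral lobe, and neither passed. Closely related copies such as Scd1, Scd2 and Scd3 may share probe signal, which was not tested.

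**Figure D3:**
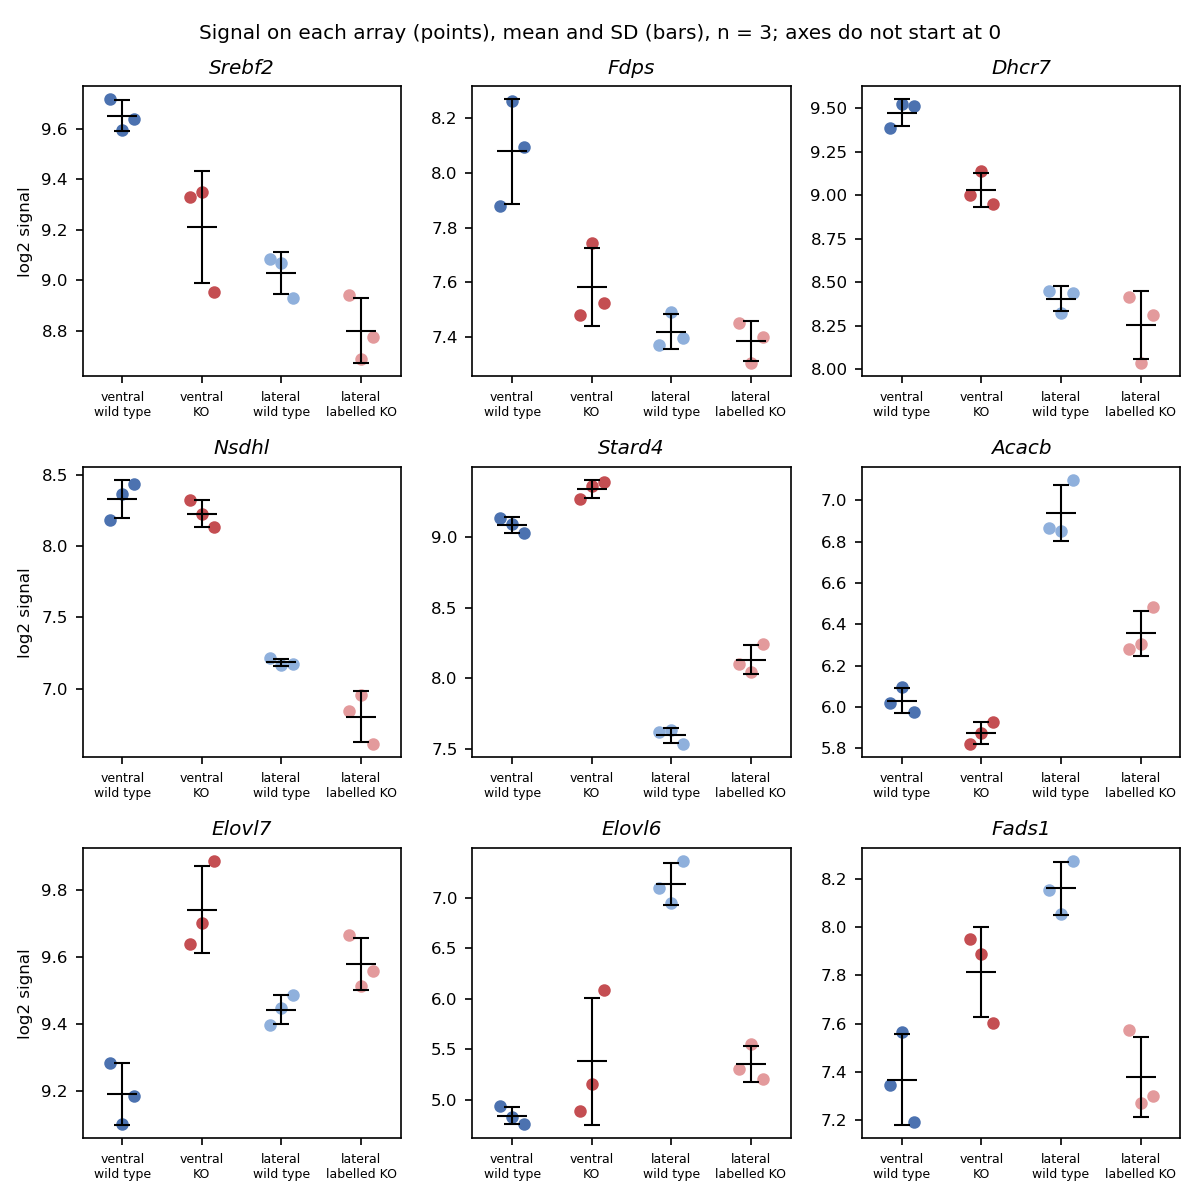
The y axis is log2 signal of the 9 genes past the threshold in at least 1 lobe, for the 4 groups, with points for arrays and bars for mean and SD (n = 3). Elovl6 is highest in lateral wild type, and Fads1 is higher in ventral knockout and lower in the lateral group labelled knockout than in the wild type of its lobe.

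**Figure D4:**
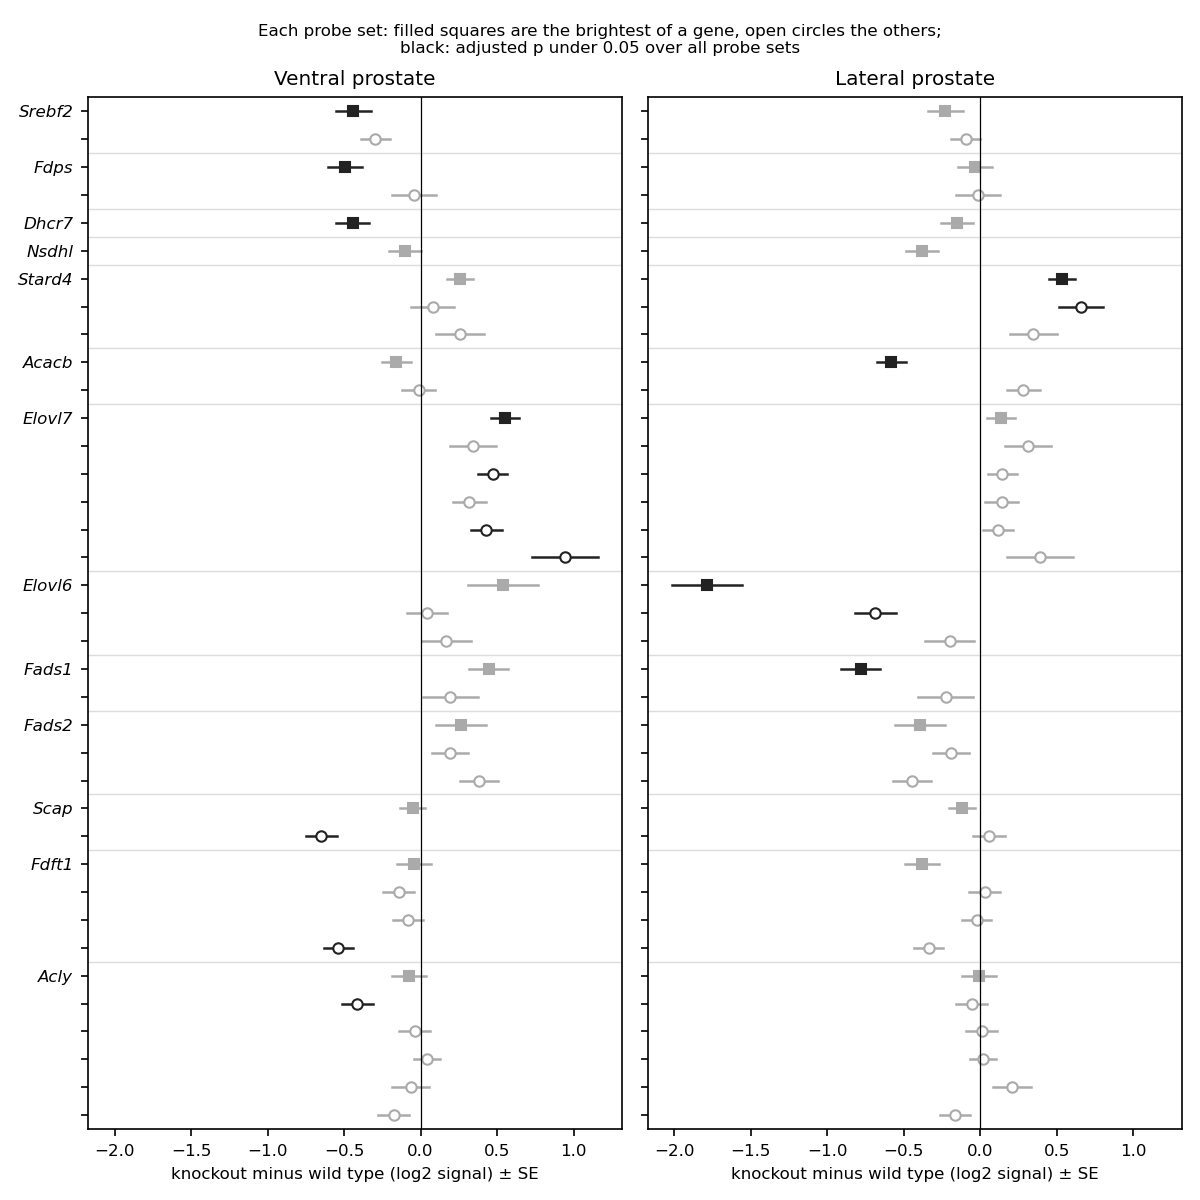
The x axis is the knockout minus wild-type difference in log2 signal with its SE, for every probe set of these 9 genes and of Fads2, Scap, Fdft1 and Acly, with filled squares for the brightest of a gene and open circles for the others. Black marks an adjusted p under 0.05 over all probe sets, and the dimmer Acacb probe set lies on the other side of 0 in the lateral lobe.

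The 5 measured genes of activation and triglyceride synthesis gave no call in either lobe by limma, with 2 ventral and 0 lateral differences at an unadjusted p under 0.05. Acsl3 and Acsl4, which join fatty acids to coenzyme A, had differences between -0.17 and 0.07 over both lobes. Gpam, the mitochondrial acyltransferase that starts glycerolipid synthesis, had 0.19 in the ventral lobe (limma adjusted p = 0.180), and Dgat1, which makes triglyceride from diacylglycerol, had -0.23 (limma adjusted p = 0.195), both with separate arrays. Dgat2, an enzyme of the same reaction, had -0.10 and 0.07.

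Genes of the same pathways outside this set were also read. Of 22 measured genes of sterol handling, Abca1 and Mbtps2 rose in the ventral lobe and 0 fell, where 2 had an unadjusted limma p under 0.05 as lower. The 2 that rose are 9.1%, against 5.88% of all genes, and 3.2% of all genes fell. None passed in the lateral lobe by limma, where 4 had an unadjusted p under 0.05. Of all genes 5.03% passed there in either direction. Medians were 0.023 and -0.011. Abca1 exports cholesterol from cells and rose by 0.55 (limma adjusted p = 0.0107), but the mean of its probe sets, 0.33, did not pass (limma adjusted p = 0.0529), nor did its probe set of largest variance, at 0.09 (0.722). Mbtps2, the Golgi protease that makes the last SREBP cut, rose by 0.53 (limma adjusted p = 0.0215). The rise was lost without ventral wild-type replicate 1 (limma adjusted p = 0.0652), ventral wild-type replicate 3 (0.0895) or ventral knockout replicate 3 (0.0848). For Mbtps2 the lobes differed by -0.77 (limma adjusted p = 0.0191), a call lost without ventral wild-type replicate 3 (0.0518) or lateral wild-type replicate 3 (0.0530). Between lobes 1 of the 22 genes passed as lower (4.5%, against 6.51% of all genes).

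Of 38 measured neighbours in fatty acid and glycerolipid metabolism, 1 fell in ventral knockout and 2 in the lateral lobe. That is 2.6% and 5.3%, against 3.2% and 3.42% of all genes, and medians were -0.051 and 0.012. Scd3, a delta-9 desaturase, fell by 0.63 in the ventral lobe (limma adjusted p = 0.0358), a call lost without ventral wild-type replicates 2 or 3 (limma adjusted p = 0.0689 and 0.146) or ventral knockout replicates 2 or 3 (0.104 and 0.0715). Hacd2, a dehydratase of the elongation cycle, fell by 0.37 in the lateral lobe (limma adjusted p = 0.0161), a call lost without lateral wild-type replicates 2 or 3 (0.0637 and 0.0746) or lateral labelled-knockout replicate 2 (0.0681). Agpat4, a lysophosphatidate acyltransferase, fell by 0.44 in the lateral lobe (limma adjusted p = 0.0456) and kept this call in 9 of 22 alternatives. It was lost without ventral wild-type replicates 1 or 2, ventral knockout replicate 1, any lateral wild-type replicate, or lateral labelled-knockout replicates 2 or 3 (limma adjusted p = 0.0512 to 0.191). The lobes differed for Hacd1 (-0.77, limma adjusted p = 0.0204), Agpat4 (-0.64, 0.0267) and Mid1ip1 (-0.55, 0.0314), a protein that activates acetyl-CoA carboxylase. These 3 are 7.9% of the list, against 6.51% of all genes as lower in that test. Hacd1 lost that call without lateral wild-type replicate 1 (limma adjusted p = 0.0516). Agpat4 lost it without ventral wild-type replicates 1 or 2, ventral knockout replicates 1 or 3, lateral wild-type replicate 3, or lateral labelled-knockout replicates 2 or 3 (limma adjusted p up to 0.0713). Mid1ip1 lost it without replicates 1 or 3 of ventral wild type, ventral knockout or lateral wild type, or lateral labelled-knockout replicates 1 or 2 (limma adjusted p up to 0.0796). Fads3, beside Fads1 and Fads2, did not pass in the ventral lobe (0.19, limma adjusted p = 0.199).

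Replicates spread unevenly. The median SD of the 40 genes was 0.079 in ventral wild type, 0.17 in ventral knockout (0.13 over all genes there), 0.082 in lateral wild type and 0.11 in the lateral group labelled knockout. Ventral knockout replicate 3 was the highest of its group for 24 of 40 genes (60%, against 39.6% of all genes), among them Elovl6, Insig1, Fdft1 and Sqle. Lateral labelled-knockout replicate 2 was the lowest of its group for 27 of 40 (67.5%, against 42.7%), among them Insig1, Idi1 and Dhcr7.

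Wild-type levels of the lobes are a description, with no test, since the deposited values appear to have been normalized within each lobe. As deposited, 31 of 40 genes (77.5%) were lower in lateral than in ventral wild type, as were 75.3% of all genes, and the arrays were separate and lower in 29, higher in 8, where 59.3% and 14% of all genes were separate that way. The median was -0.64 against -0.34 over all genes. With quantile normalization over all arrays it was -0.20 against 0.049, with 23 of 40 (57.5%) lower, against 46.1% of all genes. On that scale 19 were separate and lower and 13 separate and higher, against 30.1% and 36.6% of all genes. Sc5d (-2.15 as deposited, -1.64 after quantile normalization), Insig1 (-1.61 and -1.05), Scd2 (-1.53 and -1.04) and Stard4 (-1.49 and -0.99) were furthest below 0. Scd2 read 11.97, 12.02 and 11.92 in ventral and 10.50, 10.35 and 10.50 in lateral wild type. Elovl6 was furthest above 0 (2.30 and 2.65). By their brightest probe sets Fads2, Acacb, Fads1, Acsl3, Elovl5, Elovl7, Mvk and Acaca were also higher in lateral wild type under both scalings. By their brightest probe sets the desaturases Fads1 and Fads2 and the elongases Elovl5, Elovl6 and Elovl7 were thus higher in lateral wild type. The delta-9 desaturases Scd1 and Scd2 were higher in ventral wild type. Some dimmer probe sets of Elovl7, Fads2, Acaca and Acacb were lower in lateral wild type as deposited. For Elovl7 such a probe set had a mean of 7.93 in ventral and 7.57 in lateral wild type, and for Fads2 5.71 and 5.38.

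**Figure D5:**
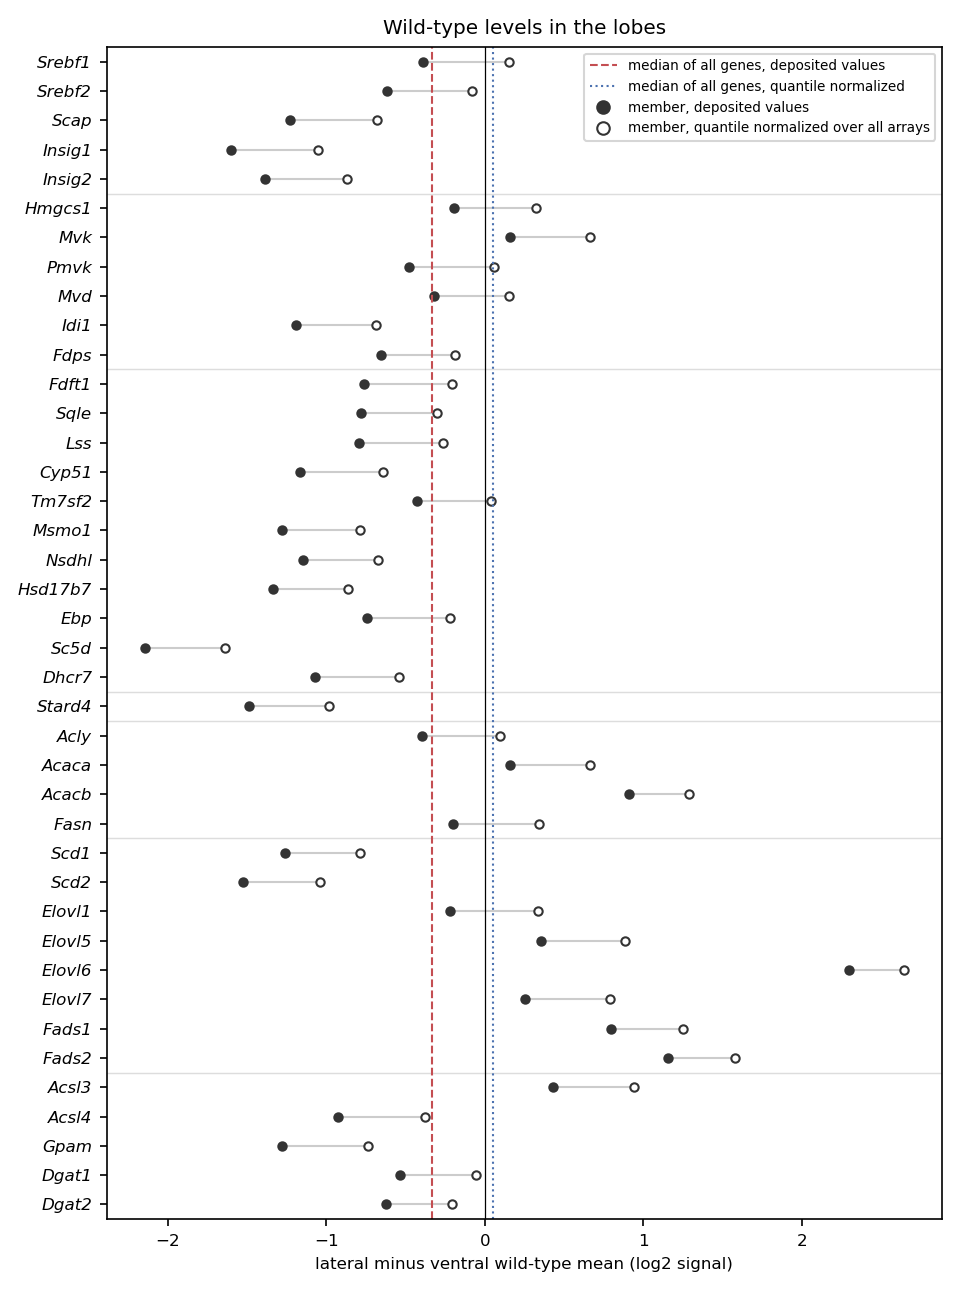
The x axis is the lateral minus ventral difference of wild-type means in log2 signal (3 arrays each), with filled points for deposited values and open points after quantile normalization over all arrays, and each row is a gene. Elovl6 lies furthest to the right at 2.30 and Sc5d furthest to the left at -2.15, and lines mark the medians of all genes.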

How the data were processed

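Total RNA from 12 mouse prostate samples was hybridized to Affymetrix arrays. The authors deposited log2 signals, made with RMA in Affymetrix Expression Console per the submitters' processing notes. Versions and the annotation build were not given in the sources used here. Of 45101 probe sets, 34958 had 1 gene symbol, 932 several and 9211 none. Symbols were updated for 34754 of these 34958, which matched a RefSeq gene table (GRCm38.p6), and the others kept their symbol. The 34958 probe sets gave 18194 genes, each read by its brightest probe set. The sorted values ranged less within a lobe (median 0.0493 ventral, 0.0786 lateral) than over all arrays (0.388), so the lobes look separately normalized. Groups came from sample titles. Genotypes were compared by limma 3.58.1 (R 4.3.3) on 4 group means over all arrays (8 residual and 5.68 prior degrees of freedom), with Benjamini-Hochberg adjustment over all genes and a threshold of 0.05. Arrays give no read depth, and their number limits the precision; arrays of a group correlated at 0.992 to 0.996. Simulated data of the ventral comparison (18194 genes) tested the steps: 30 of 67 genes changed by 0.5, 66 of 67 by 1 and 66 of 66 by 2 log2 units were called, beside 15 of 17994 unchanged genes. Array values are printed for the regulators and for the 8 genes of smallest p in each lobe, every gene past the threshold is named, the 5 largest lobe differences are given, and up to 6 genes past the threshold are named in each related list. The genes, lists, low-signal mark and rules were chosen with earlier results of these data known. Alternatives were the lobe's arrays alone, replicate blocks, other scalings, a filter on dim genes, other handling of probe sets, another variance model, other thresholds and arrays left out. The sources used here did not say whether replicate numbers pair the arrays, and the fit treated them as unpaired. Deviations of arrays with the same number correlated at -0.0071 to 0.116 between genotypes of a lobe and at -0.061 to 0.072 between lobes. With different numbers they correlated at -0.078 to 0.044 and at -0.083 to 0.055. These values cannot decide whether samples share an animal, since deviations were taken from means of 3 arrays.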

Additional observations from a re-analysis of the deposited data

Results flagged for a closer look

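The genotype difference of Elovl6 differed between the lobes, by -2.32 ± 0.32 log2 units (limma adjusted p = 5.38e-04): it fell in lateral arrays labelled knockout and did not pass in the ventral lobe, with 3 arrays in each group. Fads1 also differed between the lobes, by -1.23 ± 0.18 (limma adjusted p = 6.7e-04), with a rise in the ventral and a fall in the lateral lobe. Both were brought forward by the interaction test, and both stayed past the threshold in each alternative run, 20 for Elovl6 and 21 for Fads1. Med1, the targeted gene, did not pass in the lateral lobe or, by its brightest probe set, between lobes, which bears on both statements.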

How the results depend on the processing

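No direction reversed in the alternatives run. The number of genes of the set that rose in the ventral lobe (2) was 1 with the lobe's 6 arrays alone, with quantile normalization, with the mean of all probe sets, at an adjusted p under 0.01 and without both ventral wild-type replicate 3 and lateral labelled-knockout replicate 3, and 1 to 2 with 1 array left out. The number that fell (3) was 1 with the 6 arrays alone, 0 by limma at an adjusted p under 0.01 and 0 without both of those arrays (6 had an unadjusted p under 0.05 in the full fit), and 1 to 3 with 1 array left out. In the lateral lobe the number that rose (1) was 2 with quantile normalization and 0 by limma with the probe set of largest variance, and 1 to 2 with 1 array left out; the number that fell (4) was 3 to 6. Between lobes, 1 gene was higher with quantile normalization, without the dimmest 40% of genes and at an adjusted p under 0.10 (0 by limma in the full fit, 5 at an unadjusted p under 0.05), and 0 to 1 with 1 array left out. The number lower there (2) was 5 at an adjusted p under 0.10 and 2 to 4 with 1 array left out. Genes separate and lower in lateral wild type (29, where 59.3% of all genes were) were 19 with quantile normalization (30.1% of all genes), and 29 to 31 with 1 array left out. The lobe comparison without single arrays was added after seeing the data. With the replicate number as a fixed block, 2 rose and 3 fell in the ventral lobe and 1 rose and 3 fell in the lateral lobe, where Nsdhl no longer passed (limma adjusted p = 0.0673); it changed no other call of the 40 genes. Elovl6 could not be tested with the dimmest 40% of genes left out, since it falls among them. The smallest of the changes are under 0.5 log2 units in size, and the simulation recovered 30 of 67 genes changed by 0.5. It covered the ventral comparison alone and changed fewer genes than the 1652 that passed there. Its share is therefore not the recovery rate of these data. The cause of each lost call was not tested.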
